A study of Macaca mulatta with 2 samples.

Results

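The genes described here encode the nuclear subunits of oxidative phosphorylation in the prefrontal cortex of infant rhesus macaques. They were taken by name as the NDUFA, NDUFB, NDUFC, NDUFS and NDUFV genes followed by a digit, NDUFAB1, the SDHA to SDHD genes, CYC1, and the UQCR, COX4 to COX8 and ATP5 genes. Of 79 such rows among the 33618 genes of the count table, 74 reached at least 1 CPM (reads of a gene scaled by the total reads of its library) in the control or the sevoflurane library and are the members. The data were 1 library of a control animal (CON) and 1 library of an animal given sevoflurane (SEV), both Macaca mulatta labelled as 28 days old. By the labels, the exposures took place on about postnatal days 7, 14 and 28, lasted 4 h each and used 2.5 to 3% sevoflurane. The methods give later days for the repeat exposures and state that the cortex was taken immediately after the last. Any genetic change of the animals and the handling of the control animal are not given in the sources used here. The study had 3 animals in each group, and the other animals were not analysed here.

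Oxidative phosphorylation takes place in the inner mitochondrial membrane. Complexes I and II pass electrons from NADH and succinate to coenzyme Q, complex III passes them to cytochrome c, and complex IV passes them to oxygen. Complexes I, III and IV pump protons, and ATP synthase (complex V) uses the returning protons to make ATP. Most subunits are encoded in the nucleus and some of complexes I, III, IV and V in mitochondrial DNA, and cortical neurons depend heavily on this supply of ATP for ion pumping and synaptic transmission.

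The CON library held 16960880 reads and the SEV library 9839105. With 1 animal in each group there were no replicates, so every ratio compares these 2 libraries and not the conditions, and no p-value is given. Ratios are log2 of SEV over CON, on CPM scaled by edgeR's TMM factors with a prior count of 2, and each 95% interval covers counting error only. The 7 Y-linked genes looked at had 3 reads in CON and 4308 in SEV, so the libraries also differed in Y-linked expression, and animal, sex and exposure cannot be told apart. All 8 neuron markers were present in both libraries. The 13 mitochondrially encoded subunits were listed at 0 reads in both, so they could not be compared with their nuclear partners.

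The 74 members were slightly lower in the SEV library as a group. In bulk tissue, fewer cells of a type and less RNA per cell cannot be told apart. They took 0.366% of all reads in CON (exact 95% interval 0.363 to 0.369%) and 0.336% in SEV (0.333 to 0.340%), and the log2 ratio of their summed reads was -0.15 (95% interval -0.17 to -0.13). Their median log2 ratio was -0.19, beside -0.0048 over all 18050 genes that passed the same limit of 1 CPM. Of the members, 49 lay below 0 and 25 above. The shift was shallow, and most members differed by less than 1.5-fold.

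Counting intervals excluded equal expression for 34 members that were lower in SEV (45.9%), against 28.1% of all genes tested, and for 13 that were higher (17.6%), against 28.4%. This count favours abundant genes. Where the mean level was 10 CPM or more, 32 of 62 members were lower (51.6%) against 35.2% of 10802 genes, and 12 were higher (19.4%) against 30.3%. At 1.5-fold, 9 members were lower (12.2%, background 11.9%) and 4 higher (5.41%, background 14.4%). At 2-fold, 2 were lower (2.70%, background 5.47%) and 1 was higher (1.35%, background 7.56%). At 10 CPM or more, 7 of 62 members were lower by 1.5-fold (11.3%) against 9.27% of genes at that level, and 3 were higher (4.84%) against 8.58%. At 2-fold, 2 of the 62 were lower (3.23%) against 2.53%, and 0 were higher against 2.44%. The members' share of decreases past 1.5-fold was thus close to or a little above the background at both levels. Past 2-fold, with 2 members, it was below the background of all genes tested and a little above that at 10 CPM or more. The share of increases was below the background at both folds and both levels.

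The members differed among themselves by more than counting error. The SD of their log2 ratios was 0.43, whereas the median half-width of their counting intervals was 0.22. For 41 of the 74, the distance from the members' median was larger than the half-width of their own interval. The interquartile range of the members was 0.53 on the log2 scale, beside 0.71 for all genes tested. At a mean of 10 CPM or more it was 0.51 for the members and 0.54 for all genes, so the spreads were close at that level. Level did not order the ratios, since Spearman's rho between mean CPM and log2 ratio was 0.013 over the 74 members, which share both libraries.

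**Figure D1:**
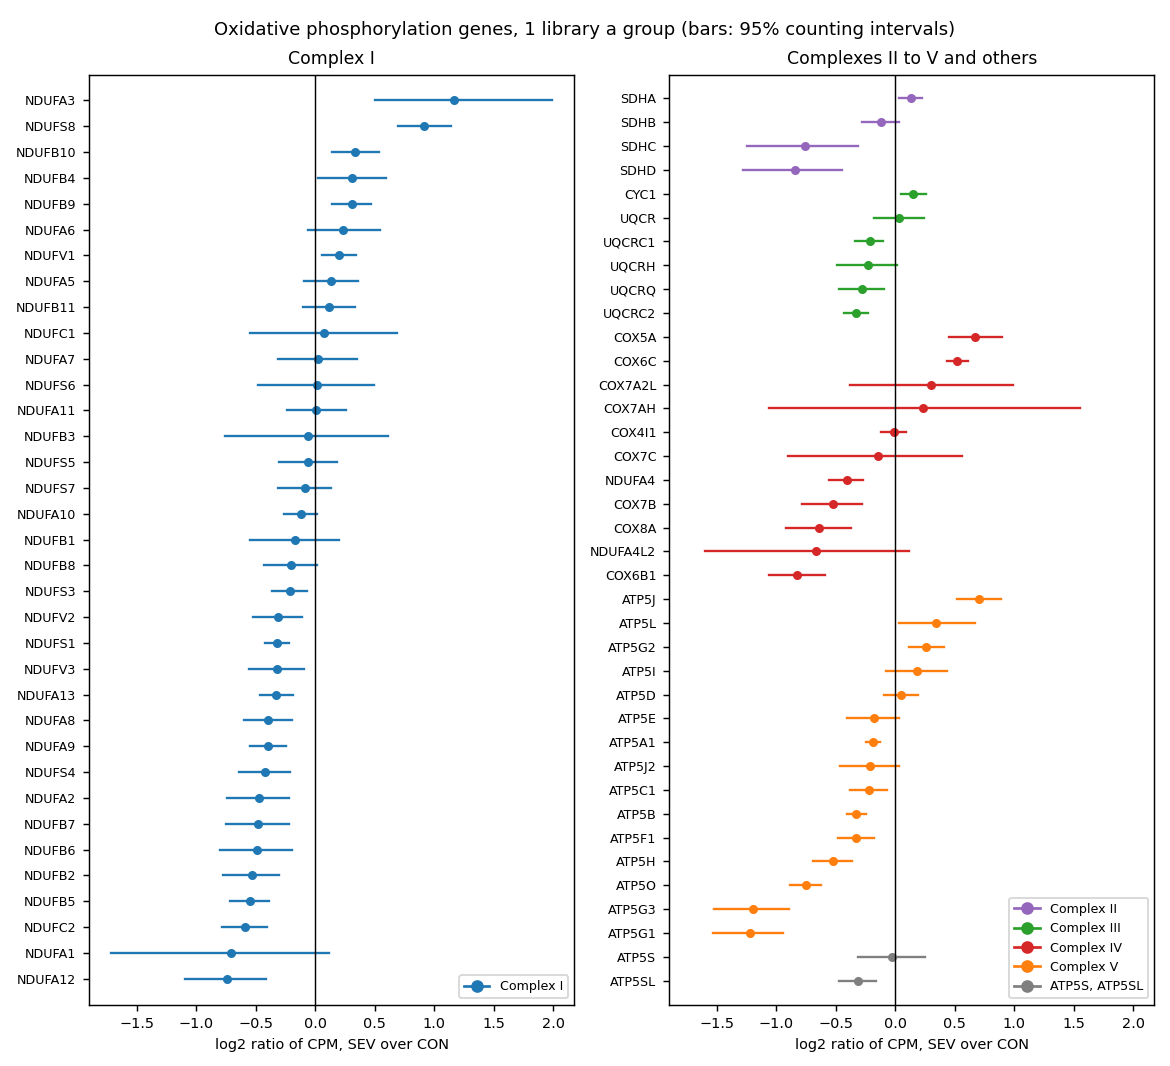
The log2 ratio of CPM, SEV over CON (horizontal axis), of the members, all but 1 of the 74, ordered within each respiratory complex and coloured by it. Points are 1 library against 1 and bars are 95% counting intervals. ATP5G1 (-1.22) and ATP5G3 (-1.19) lie lowest and NDUFA3 (1.17) highest.

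Complex I, the NADH dehydrogenase, contributed 36 members with a median log2 ratio of -0.15. Of these, 16 were lower (44.4%, background 28.1%) and 6 higher (16.7%, background 28.4%) beyond counting error, and the interval of the other 14 included equal expression. Their summed reads had a log2 ratio of -0.17 (95% interval -0.20 to -0.14). The 16 subunits of the matrix arm, which carries the flavin and the iron-sulfur clusters, had a median of -0.17, and the 20 of the membrane arm had a median of -0.14.

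The 7 conserved core subunits of complex I carry out electron transfer. NDUFS1, which holds several iron-sulfur clusters, had 2587 reads in CON and 1224 in SEV (log2 ratio -0.32, interval -0.42 to -0.22). NDUFV2, another iron-sulfur protein, had 598 and 284 reads (-0.31, -0.52 to -0.11). NDUFS3 had 1073 and 546 reads (-0.22, -0.37 to -0.07). These core subunits were lower in SEV. NDUFS7, an iron-sulfur protein near the coenzyme Q site, had 461 and 256 reads, with an interval of -0.32 to 0.13. NDUFV1, which binds NADH and the flavin, had 1003 and 680 reads and was higher (0.20, 0.06 to 0.34).

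NDUFS8 stood apart from the other core subunits. It holds a pair of iron-sulfur clusters near the coenzyme Q site and had 315 reads in CON and 352 in SEV, although the SEV library was shallower. Its level was 18.7 CPM in CON and 35.4 CPM in SEV, a log2 ratio of 0.91 (interval 0.70 to 1.14) or 1.88-fold. Its interval did not overlap those of the other 6 core subunits.

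Among the 29 accessory subunits of complex I, 12 were lower (41.4%, background 28.1%) and 4 higher (13.8%, background 28.4%) beyond counting error. NDUFA12, at the matrix arm, was the lowest member of the complex, with 279 reads in CON and 98 in SEV (16.6 and 9.87 CPM, log2 ratio -0.74, interval -1.10 to -0.41). NDUFC2, in the membrane arm, had 838 and 328 reads (49.9 and 33.0 CPM, -0.59, -0.78 to -0.41). Both were lower by more than 1.5-fold. Some NDUFB subunits of the membrane arm followed at -0.55 (NDUFB5), -0.53 (NDUFB2), -0.49 (NDUFB6) and -0.48 (NDUFB7), while NDUFB9 (0.31), NDUFB4 (0.31) and NDUFB10 (0.34) of the same arm were higher. The membrane arm therefore held subunits on both sides of equal expression.

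NDUFA3 was the highest member of all, and the only one past 2-fold upward. It had 28 reads in CON and 39 in SEV (1.67 and 3.93 CPM), with a log2 ratio of 1.17 whose interval ran from 0.50 to 1.99, so that its size is poorly fixed at this depth. The highest member of complex I with a mean of at least 5 CPM was NDUFS8. NDUFA1, a membrane arm subunit encoded on the X chromosome, had 43 and 15 reads, and its interval of -1.71 to 0.12 included equal expression. The 2 other X-linked members differed from each other. NDUFB11 had 443 and 284 reads, with an interval of -0.10 to 0.34, and COX7B of complex IV had 457 and 187 reads and was lower (-0.53, -0.78 to -0.28).

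Complex II, succinate dehydrogenase, has only nuclear subunits and also serves the tricarboxylic acid cycle. Both genes of its membrane anchor were lower in SEV, while SDHA of its catalytic part was slightly higher. SDHD had 202 reads in CON and 66 in SEV (log2 ratio -0.84, interval -1.28 to -0.45). SDHC had 153 and 53 reads (9.10 and 5.34 CPM, -0.75, -1.25 to -0.31). Both anchor proteins bind heme and coenzyme Q within the membrane. SDHA, the flavoprotein, had 2230 and 1443 reads (0.13, 0.03 to 0.23). SDHB, the iron-sulfur protein, had 950 and 516 reads, with an interval of -0.28 to 0.03. The intervals of SDHC and SDHD did not overlap those of SDHA and SDHB. The median over the 4 genes was -0.44, while the log2 ratio of their summed reads, most of which fell on SDHA, was -0.0077 (interval -0.09 to 0.07).

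Complex III, the cytochrome bc1 complex, contributed 6 members with a median of -0.22, and none reached 1.5-fold. UQCRC2 had 2505 reads in CON and 1176 in SEV (-0.33, -0.43 to -0.23), and UQCRC1 had 1742 and 886 reads (-0.22, -0.33 to -0.10). Both encode the large core proteins that face the matrix. CYC1, the heme-bearing cytochrome c1, had 1791 and 1177 reads and was higher (0.15, 0.05 to 0.26). Of the small subunits, UQCRQ was lower (-0.28, -0.47 to -0.09), and the intervals of UQCRH and UQCR, an older symbol of UQCR11, included equal expression.

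Complex IV, cytochrome c oxidase, had 11 members with an interquartile range of 0.85 on the log2 scale, the widest of the 5 complexes. Of these, 4 were lower (36.4%, background 28.1%) and 2 higher (18.2%, background 28.4%) beyond counting error, which with so few genes is near the background. COX6B1, which faces the intermembrane space, had 606 reads in CON and 202 in SEV (36.1 and 20.3 CPM, log2 ratio -0.82, interval -1.06 to -0.59). COX8A, a small subunit within the membrane, had 410 and 155 reads (24.4 and 15.6 CPM, -0.64, -0.92 to -0.37). NDUFA4, first assigned to complex I and now to complex IV, had 1309 and 582 reads (-0.41, -0.55 to -0.27). These structural subunits were lower in SEV, as was COX7B.

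Other subunits of complex IV were higher in SEV. COX5A had 348 reads in CON and 328 in SEV (20.7 and 33.0 CPM, log2 ratio 0.67, interval 0.45 to 0.90), and COX6C had 2194 and 1863 reads (0.52, 0.43 to 0.61). COX4I1, the subunit through which ATP regulates the enzyme, had 2023 and 1184 reads, with an interval of -0.12 to 0.09. The median of the complex was -0.15, while its summed reads had a log2 ratio of 0.05 (interval -0.0042 to 0.10), so that the summary depended on whether genes or reads were weighted. With a filter of 5 CPM, which removed 4 low members, the median became -0.41. With the subunits listed under other identifiers, given below, it became -0.014.

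Complex V, ATP synthase, contributed 15 members with a median of -0.21. Of these, 8 were lower (53.3%, background 28.1%) and 3 higher (20%, background 28.4%) beyond counting error. The catalytic F1 head was a little lower. ATP5A1, the alpha subunit, took the most reads of all members and had 6778 reads in CON and 3527 in SEV (-0.18, -0.24 to -0.12). ATP5B, the catalytic beta subunit, had 3947 and 1859 reads (-0.33, -0.41 to -0.25). The gamma subunit ATP5C1 had 1050 and 531 reads (-0.22, -0.38 to -0.07), and the intervals of ATP5D and ATP5E included equal expression.

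The peripheral stalk, which holds the F1 head against the rotor, was split. ATP5O, the subunit that confers oligomycin sensitivity, had 1796 reads in CON and 629 in SEV (107 and 63.3 CPM, log2 ratio -0.75, interval -0.89 to -0.62). ATP5H had 1009 and 414 reads (-0.52, -0.69 to -0.36), and ATP5F1 had 1180 and 555 reads (-0.33, -0.48 to -0.18). ATP5J, the coupling factor 6 of the same stalk, had 499 and 480 reads and was higher, at 29.7 CPM in CON and 48.3 CPM in SEV (0.70, 0.52 to 0.89). Of the small membrane subunits, ATP5L was higher (0.34, 0.03 to 0.67), and the intervals of ATP5I and ATP5J2 included equal expression.

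The c subunit, which forms the rotor ring of ATP synthase, is encoded by 3 genes whose products differ in the mitochondrial import sequence and give the same mature protein. ATP5G1 had 485 reads in CON and 122 in SEV (28.9 and 12.3 CPM), and with a log2 ratio of -1.22 (interval -1.53 to -0.94) it was the lowest member of all. ATP5G3 had 421 and 108 reads (25.1 and 10.9 CPM, -1.19, -1.52 to -0.90). These were the only members lower by at least 2-fold, by 2.33-fold and 2.29-fold. ATP5G2 had 908 and 643 reads and was higher (54.0 and 64.7 CPM, 0.26, 0.11 to 0.41).

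Within each library, the reads on the c subunit genes were divided differently. ATP5G2 took 50.1% of 1814 such reads in CON (exact 95% interval 47.7 to 52.4%) and 73.7% of 873 in SEV (70.6 to 76.5%). ATP5G1 took 26.7% (24.7 to 28.8%) and 14.0% (11.7 to 16.5%), and ATP5G3 took 23.2% (21.3 to 25.2%) and 12.4% (10.3 to 14.7%). None of these 3 pairs of intervals overlapped, and the shares do not depend on the scaling between libraries. The log2 ratio of the summed c subunit reads was -0.30 (interval -0.41 to -0.18), a smaller difference than that of ATP5G1 or ATP5G3 alone. The parts of these genes that encode the mature protein resemble each other, and how the authors counted reads that match several genes is not given in the sources used here.

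**Figure D2:**
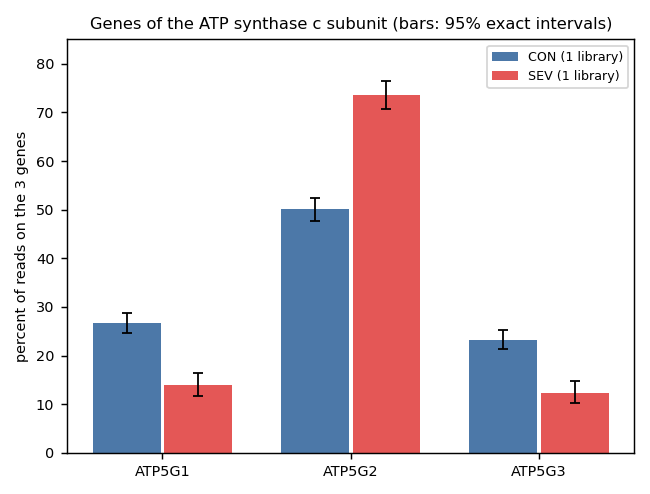
Percent of the reads on ATP5G1, ATP5G2 and ATP5G3 that fell on each gene (vertical axis), in the CON and the SEV library, 1 library each. Error bars are exact 95% intervals of counting. ATP5G2 takes 50.1% of these reads in CON and 73.7% in SEV, and the other 2 genes take less.

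Other subunits exist as a widely used form and a form of particular tissues. For COX4, COX6B and COX7B the widely used form held nearly all reads in both libraries. COX4I2 had 9 reads in CON and 7 in SEV, beside 2023 and 1184 on COX4I1. COX6B2 had 3 and 1 reads, and COX6A2 and COX7B2 had 0 in both. NDUFA4L2, a relative of NDUFA4 that is induced by low oxygen and known from pericytes, took 3.47% of the reads on the pair in CON (exact 95% interval 2.56 to 4.58%) and 2.84% in SEV (1.66 to 4.51%), so that no change of form was detectable. The summed level of 6 mural cell markers was 438 CPM in CON and 468 CPM in SEV, with none at 0, but these markers were divided. Of them, 2 were lower (33.3%, background 28.1%) and 2 higher (33.3%, background 28.4%) beyond counting error, and their median log2 ratio was -0.14. COX7AH, an older symbol of the muscle form COX7A1, had 14 and 10 reads and lay just inside the limit of 1 CPM, and COX4I2 lay just outside it. COX7A2L, a supercomplex assembly factor, had 45 and 33 reads (interval -0.38 to 0.99). Of the reads on the COX7A family, the widely used COX7A2, listed as LOC717879, took 77% of 256 in CON (exact 95% interval 71.3 to 82.0%) and 80.7% of 223 in SEV (74.9 to 85.7%). COX7A2L took 17.6% and 14.8%, and COX7AH 5.47% and 4.48%.

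Together with COX4I2, COX6A2, COX6B2 and COX7B2, NDUFAB1 was below the limit, listed at 0 reads in both libraries. It encodes the mitochondrial acyl carrier protein, which every cell uses, so this row cannot be read as its level. COX7C had 49 and 26 reads (interval -0.90 to 0.56), but the RefSeq gene table of assembly T2T-MMU8v2.0 gives that symbol to the identifier of another row, LOC106998836, which had 700 and 527 reads (log2 ratio 0.35). Among the members, ATP5S and ATP5SL share the name but are not subunits of ATP synthase. ATP5S had 290 and 168 reads (interval -0.31 to 0.25), and ATP5SL, which takes part in complex I assembly, had 1041 and 494 reads (-0.32, -0.47 to -0.16).

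**Figure D3:**
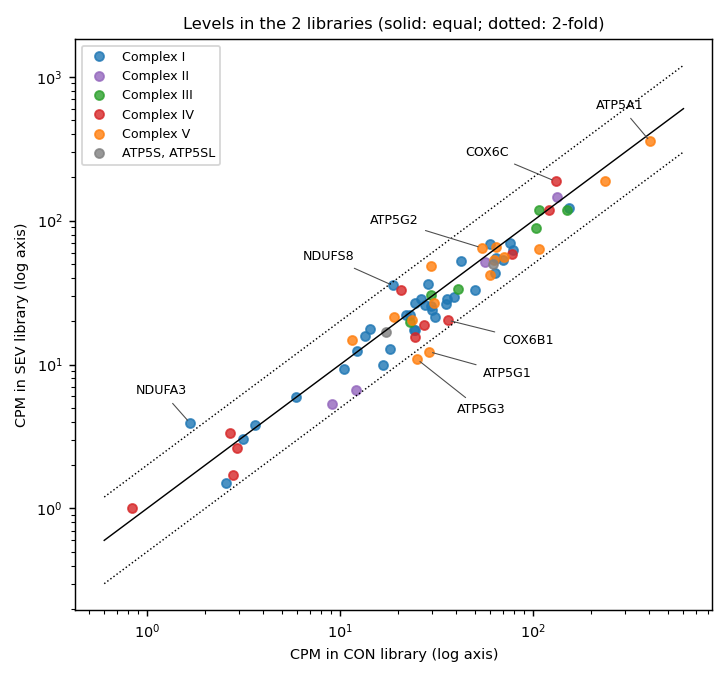
CPM of the members, all but 1 of the 74, in the CON library (horizontal) and the SEV library (vertical), both on log axes, coloured by complex, with 1 library a group. The solid line marks equal levels and the dotted lines 2-fold. Most members lie within the dotted lines, ATP5G1 and ATP5G3 fall below them and NDUFA3 above.

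Further subunits were listed in the count table under identifiers that the name rule does not take. By gene ID or older symbol in the same RefSeq table there were 10, of which 9 reached 1 CPM. They are no members, and all 10 are given, the last being LOC106996000 (COX8C) at 0 reads in both. LOC700087, the Rieske iron-sulfur protein UQCRFS1 that carries electrons within complex III, had 515 reads in CON and 156 in SEV (log2 ratio -0.96, interval -1.23 to -0.70), below all 6 complex III members. LOC707227, which encodes COX5B, had 261 and 280 reads (0.85, 0.61 to 1.11). With COX5A, the subunits paired by name as COX5 were thus both higher. LOC717879 (COX7A2) was at 0.62, LOC701223 (UQCRB) at 0.55 and ATPIF1, the inhibitor of ATP synthase, at 0.54. LOC696956 (COX6A1) was at -0.17, LOC720636 (UQCR10) at -0.45 and USMG5, a small ATP synthase subunit, at -0.51. Of the 9, 4 were lower (44.4%, background 28.1%) and 5 higher (55.6%, background 28.4%) beyond counting error. Their own median was 0.35, opposite in sign to that of the members. The log2 ratio of their summed reads was 0.04 (interval -0.02 to 0.11). With them the median over 83 genes was -0.18.

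Factors that assemble the complexes are separate genes. Of 15 tested assembly factors of complex I, 10 were lower and 2 higher beyond counting error, with a median of -0.45. Of 4 factors of complex III, 3 were lower and 1 higher (median -0.44). The 16 factors of complex IV were divided, with 5 lower and 6 higher (median 0.01). The factors of complex II had a median of 0.16 over 4 genes and those of complex V 0.33 over 3. TMEM70, at -0.67, was counted with complex I and not with complex V. Of the 5 lists, those of complex I and complex III had most factors on the same side as most subunits. These counts stand beside the same background of 28.1% lower and 28.4% higher.

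Pathways that feed the respiratory chain were also examined by lists. The tricarboxylic acid cycle and pyruvate dehydrogenase genes had a median of -0.16 over 17 genes. Of these, 8 were lower (47.1%) and 3 higher (17.6%) beyond counting error, and none was past 1.5-fold. The glycolysis genes had a median of -0.40 over 15, with 14 lower (93.3%) and 1 higher (6.67%). The cytosolic ribosomal protein genes had a median of -0.29 over 79, with 40 lower (50.6%) and 14 higher (17.7%). The mitochondrial ribosomal protein genes had a median of -0.16 over 76. Over all genes tested, 28.1% were lower and 28.4% higher. At a mean of 10 CPM or more these shares were 35.2% and 30.3%. The members' median of -0.19 therefore lay among those of other housekeeping lists, and no difference between lists was tested.

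**Figure D4:**
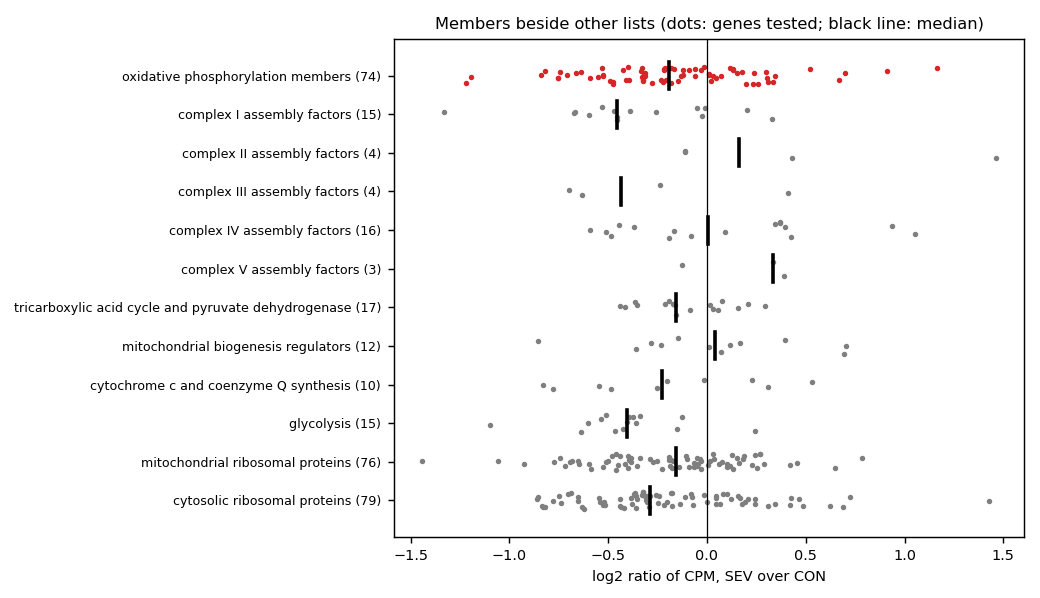
The log2 ratio of CPM, SEV over CON (horizontal axis), of every tested gene (dots) in the members and in the other lists, with the number of genes in brackets and the median as a black line. The members' median of -0.19 lies between those of glycolysis (-0.40) and of the biogenesis regulators (0.04).

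Most markers of several cell types were lower in SEV, as the members were as a group. The summed level of 8 neuron markers was 5298 CPM in CON and 4621 CPM in SEV, with a median log2 ratio of -0.27. Of the 8, 6 were lower beyond counting error (75%, background 28.1%), while RBFOX3 was higher (0.83, interval 0.75 to 0.91). The interval of SNAP25 included equal expression. The 6 astrocyte markers summed to 6083 and 4199 CPM (median -0.57), with 5 lower and SLC1A3 higher (0.27, 0.24 to 0.31). The 6 oligodendrocyte markers summed to 4056 and 1994 CPM (median -1.17, all 6 lower). The 4 markers of oligodendrocyte precursors summed to 304 and 237 CPM. The 6 microglia markers summed to 214 CPM in both libraries but were divided, with 1 lower, 2 higher and a median of 0.25. The 5 endothelial markers summed to 150 and 153 CPM, with 1 lower, 1 higher and a median of 0.13. The 4 markers of fast-spiking interneurons, which rely strongly on mitochondria, summed to 438 and 366 CPM but were divided, with 2 lower, 2 higher and a median of 0.23. Of them, PVALB was at 4.05 and 22.3 CPM (log2 ratio 2.42) and KCNC1 at 30.9 and 51.8 CPM (0.74), while ERBB4 (-0.27) and KCNC2 (-0.58) were lower. The 4 red blood cell genes summed to 24.8 and 80.8 CPM. Of all these markers 1 red blood cell gene was at 0, in CON. The part of cell makeup in the members' ratios was not tested.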

How the data were processed

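RNA of prefrontal cortex from 1 control (CON) and 1 sevoflurane-treated (SEV) macaque was sequenced. The values deposited are raw read counts for each gene, 16960880 reads for CON and 9839105 for SEV, and the submitters' processing notes name HISAT2 2.0.4. The counting tool, genome build and annotation are not given in the sources used here, so no coordinates are printed. Groups came from the sample titles. The values of 1 member are not reported here by name, though it is in the counts and medians.

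Counts were scaled by TMM (edgeR 4.0.16, R 4.3.3) over 18050 genes (1 CPM or more in a library, factors 0.991 and 1.01), and log2 ratios used a prior count of 2. For intervals, SEV's share of the reads on each gene was given 95% Clopper-Pearson bounds (scipy 1.17.1, Python 3.11.15, numpy 2.4.6, pandas 2.3.3, matplotlib 3.10.9). They cover counting error only, since no molecular identifiers are named. The floor of 3 reads was 0.177 CPM in CON and 0.305 CPM in SEV. No model of replicate spread could be fitted. A gene counted as called at 2-fold, and also at 1.5-fold, when its interval excluded equal expression as well.

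Levels are not per length and were mainly compared between libraries. The shares of reads on the copies of 1 subunit compare genes within a library and were not corrected for length. The genes named by rule were every member past 1.5-fold and the lowest and highest of each complex by ratio (mean 5 CPM or more). The rule also took the catalytic subunits, the copies of 1 subunit, X-linked members and rows below the limit. Further members outside the rule, among them NDUFB5, NDUFB9, COX6C and ATP5H, were named with their values known. Single genes of other lists and most subunits under other identifiers were named after their values had been seen. The members and lists were chosen with earlier results of these data known. Names came from the table and from RefSeq's gene table of assembly T2T-MMU8v2.0. As alternatives, scaling used size factors of DESeq2 1.42.0, plain totals or upper quartiles. Other runs used a prior count of 0.5, other filters, folds and intervals, a thinned CON library and removal of a gene span trend. The procedure was run on simulated counts with known changes, drawn with counting error only. That is the error the intervals assume, so the run says nothing about differences between animals.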

Additional observations from a re-analysis of the deposited data

How the results depend on the processing

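The medians of all members and of each complex stayed below 0 under every alternative run, from -0.21 to -0.17 for all members. They moved by less than the median half-width of the members' intervals (0.22), except that of complex IV with a filter of 5 CPM (-0.41), which leaves fewer genes. That filter also removed NDUFA3, leaving 0 members at least 2-fold higher. With the subunits under other identifiers added, the median of complex IV was -0.014, close to equal expression. With an interval that leaves 0.1% outside, 8 members were higher and 27 lower. At 1.5-fold, 4 were higher and 9 lower, and at a difference of at least 25% these were 7 and 25, as the thresholds require. No share of all genes is given for the stricter interval or the 25% difference, so those counts cannot be read against a background. The other scalings shifted all genes by 0.0052 to 0.027 (log2). Of 436 single-gene values under alternatives, 436 stayed within their counting interval. This was largely fixed in advance, since those shifts are below the smallest half-width of the members' intervals (0.059). The other runs reuse the same counts, so this result says little about the ratios. Removing a gene span trend and changing the member list were chosen after seeing the data, and 66 of 74 members had a span. The planned correction for protein length was not run, since no protein table was used here. No paired analysis was possible because only a single library stood for either group, and for the same reason no replicate could be left out. Members under 100 reads in CON, 9 in all, have wide intervals at this depth.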

Other observations

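Regulators of mitochondrial biogenesis are transcription factors and coactivators that raise the expression of nuclear mitochondrial genes. Of 12 tested, 3 were lower in SEV (25%, background 28.1%) and 4 higher (33.3%, background 28.4%) beyond counting error. These shares were near the background, and the median log2 ratio was 0.04. The following genes were singled out after their values were seen. PPARGC1A, the coactivator PGC-1alpha, had 800 reads in CON and 772 in SEV (0.71, interval 0.56 to 0.85), and its partner ESRRA had 358 and 343 reads (0.69, 0.48 to 0.91). TFAM, which packages mitochondrial DNA, had 365 and 168 reads (-0.36, -0.63 to -0.09), and TFB1M, which methylates the mitochondrial ribosomal RNA, had 186 and 60 reads (-0.86, -1.32 to -0.45).

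The mobile carriers of the chain, cytochrome c and coenzyme Q, were represented by 10 tested genes with a median of -0.23. Of these, 5 were lower (50%, background 28.1%) and 2 higher (20%, background 28.4%). CYCS, which encodes cytochrome c, had 1421 reads in CON and 599 in SEV (-0.49, -0.63 to -0.35). COQ7 had 276 and 91 reads (-0.83, -1.20 to -0.50) and COQ2 199 and 68 reads (-0.78, -1.21 to -0.39), both of which act in coenzyme Q synthesis. Of the 76 mitochondrial ribosomal protein genes, 27 were lower (35.5%) and 7 higher (9.21%), beside the same background. These values compare 1 library with 1, and no cause was tested.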
